A study of Mus musculus with 6 samples.

Results

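Oxidative phosphorylation subunits are the nuclear-encoded proteins of the 5 membrane complexes with which mitochondria make ATP. They were taken here as every gene of the mouse array whose annotated symbol begins with Ndufa, Ndufb, Ndufc, Ndufs, Ndufv, Uqcr, Atp5, Cox4i, Cox5, Cox6, Cox7 or Cox8, or is Sdha, Sdhb, Sdhc, Sdhd or Cyc1, with the Ndufaf assembly factors left out. The rule found 80 genes on 123 probes, of 19057 named genes on the array. Of these genes, 34 belong to complex I, 4 to complex II, 8 to complex III, 17 to complex IV and 16 to complex V, and 1, Ndufs5-ps, is annotated as a pseudogene. Lens RNA of mice at postnatal day 30 was measured on 6 Illumina bead arrays, with 3 samples heterozygous for Tdrd7 and 3 samples null for it, on a background mixed from C57BL/6J and C3A.Blia. Both groups thus carry a mutant Tdrd7 allele. The sources used here give neither the kind of mutation nor whether a sample pools animals. Arrays are numbered as in the raw table, 1 to 3 for heterozygous and 4 to 6 for null samples. Nothing in the labels ties samples to separate animals, so p-values measure the spread between samples, which may be technical.

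Complexes I, III and IV carry electrons from NADH to oxygen and pump protons across the inner mitochondrial membrane, complex II feeds in electrons from succinate, and complex V (ATP synthase) uses the proton gradient to make ATP. Most subunits are encoded in the nucleus, and a few core subunits, not considered here, in mitochondrial DNA. In the lens, the epithelium and the young outer fibre cells hold mitochondria, whereas maturing fibre cells degrade them with their other organelles, so that the core of the lens lacks them. In RNA of a whole lens, fewer cells with mitochondria and less RNA per cell cannot be told apart.

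Of 14 listed lens fibre genes, 12 were on the array, of which 11, Mip and Lim2 among them, were detected on all 6 arrays and 1, Gja3, was too dim to be tested. Tdrd7 itself, an RNA granule component, had log2 intensities of 14.05, 13.72 and 14.16 in heterozygous samples and 10.44, 9.59 and 10.13 in null ones (difference −3.92 ± 0.26 (SE), limma adjusted p = 0.00118). Heterozygous array 2 stood apart from the rest, with a best correlation of 0.947 with any other array, and so, less, did null array 5, at 0.963; the other 4 arrays reached at least 0.982. The arrays detected from 12655 to 16204 of 45281 probes, and only 3 arrays per group limit the precision.

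No subunit differed between null and heterozygous lenses at an adjusted p of 0.05. Of the 123 member probes, 98 were tested, being detected (p under 0.05) on 3 or more arrays, and these stood for 73 of the 80 genes. By limma with Benjamini-Hochberg adjustment over all 14902 probes tested, 0 of the 98 passed, where 0.181% of all probes did. At an unadjusted p under 0.05 there were 6 of 98, 5 lower and 1 higher in null lenses, where 8.72% of all probes reached that level (4.44% lower and 4.29% higher), so these counts are near the background under this processing. With no background correction 16 of 98 were lower (4.48% of all probes), with an offset of 50 also 16 (4.61%), and on quantile-normalized series matrix values 17 (4.49%), with 0 past the adjusted threshold in each by limma. The first and last of these rest on nearly the same values, since the series matrix rescales each raw column along a straight line. With arrays scaled to one median 0 of 98 were lower at that level (0.879% of all probes). Under the reported processing the smallest adjusted p in limma was 0.403, for Ndufb2. Of the 98 probes, 92 were detected on all 6 arrays, so the filter on dim probes chose few of them through 1 group alone. Over probes, 79 of 98 had a lower mean in null lenses (48.2% of all probes; 36 of 98 against 20.1% with arrays scaled to one median), 18 of 98 lay wholly below (7.86%) and 1 of 98 wholly above (7.43%).

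Most subunit genes had slightly lower means in null lenses. With 1 probe per gene, the brightest, 55 of the 73 genes had a lower mean in null lenses and 18 a higher one, against 46.8% lower over the 8944 genes tested, with a median of −0.14 on the log2 scale against 0.02. After arrays were scaled to one median instead of quantile-normalized, the members' median turned to 0.060, but the median of all genes moved to 0.32, so that relative to all genes the members lay at −0.26. The median was −0.21 for complex I (32 genes), 0.14 for complex II (3 genes), −0.08 for complex III (6 genes), −0.11 for complex IV (15 genes) and −0.10 for complex V (16 genes). No test of the difference between complexes was made. The half-width of the 95% interval of a single gene was 0.50 at the median, wider than the median difference of every complex, so shifts of that size could not be resolved gene by gene. The groups of 14 of the 73 genes did not overlap with null samples below, where 7.75% of all genes did so, and those of 1 gene with null samples above, where 7.7% did. At an unadjusted p under 0.05 there were 5 genes lower (4.53% of all genes) and 1 higher (4.64%).

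**Figure D1:**
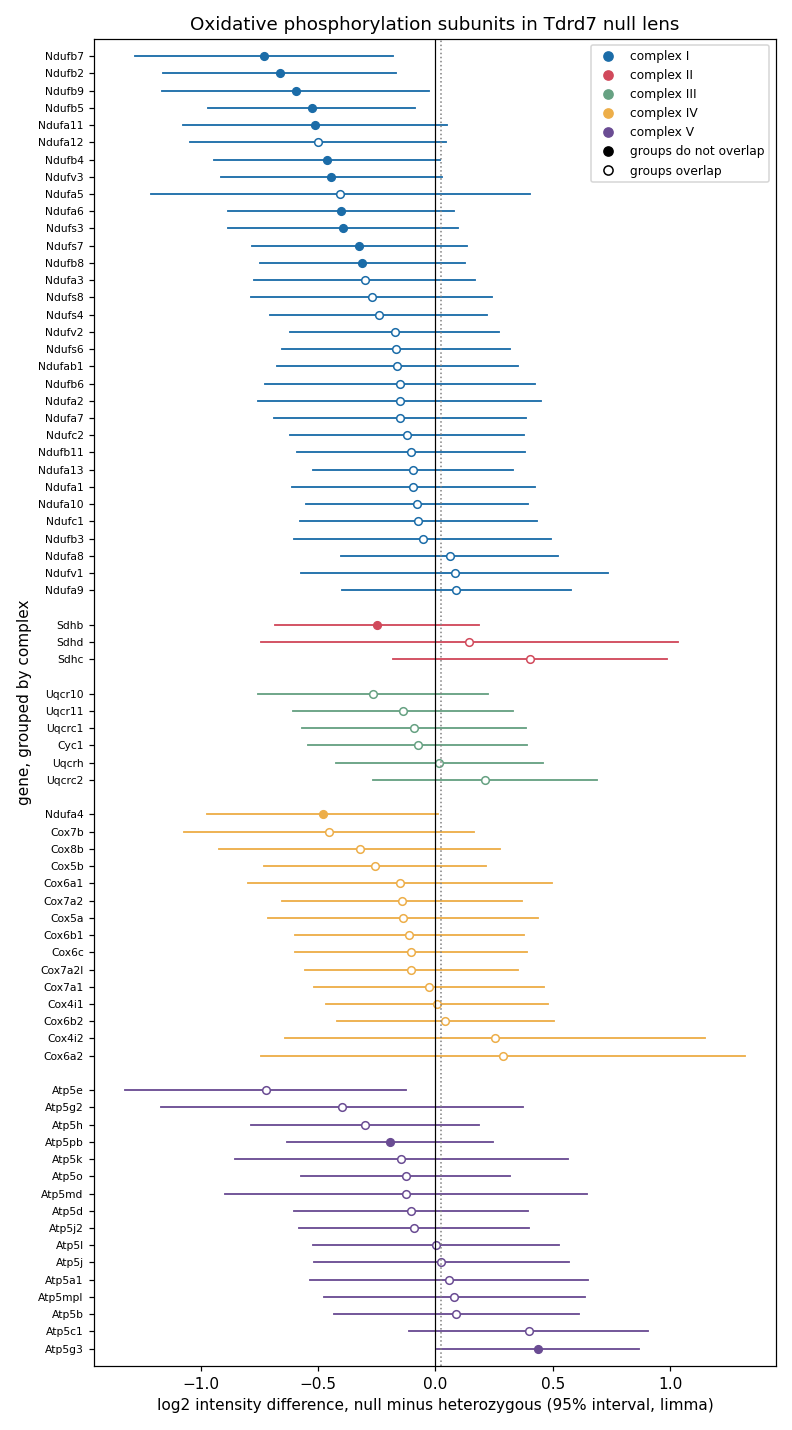
Log2 intensity difference, null minus heterozygous, for each tested gene of the 5 complexes (y axis, grouped and coloured by complex), with its 95% interval from limma, 3 arrays per group; filled points mark genes whose groups do not overlap, and the dotted line is the median of all genes tested, 0.02. Of the 32 complex I genes 29 lie left of 0 (17 of 32 when arrays are scaled to one median, where the median of all genes is 0.32).

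Complex I, NADH dehydrogenase, is the entry point for electrons from NADH, and 29 of its 32 tested genes had a lower mean in null lenses while 3, Ndufa8, Ndufv1 and Ndufa9, had a higher one. With arrays scaled to one median 17 of the 32 were lower, with a median of −0.020 against 0.32 for all genes. Null values lay wholly below heterozygous values for 11 of the 32, against 7.75% of all genes. After scaling to one median 0 of the 32 did so, against 1.53%. Of the name groups within the complex, the 9 tested Ndufb genes, accessory subunits of the membrane arm, were all lower, with a median of −0.46, and 6 of the 9 did not overlap. The 13 Ndufa genes had a median of −0.15, with 11 lower, and the 5 tested Ndufs genes one of −0.27, with all 5 lower.

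The member with the largest difference was Ndufb7, at 8.59, 9.11 and 8.31 in heterozygous lenses (arrays 1, 2 and 3) and at 8.0, 7.86 and 7.96 in null lenses (arrays 4, 5 and 6). The 3 null values were close together and below every heterozygous one, and heterozygous array 2 was the highest. The difference of −0.73 ± 0.24 (SE; 95% interval −1.28 to −0.18) corresponds to 1.66-fold less, and did not pass (limma, adjusted p = 0.404). Ndufb2 was at 8.0, 8.19 and 7.80 in heterozygous and 7.49, 7.05 and 7.46 in null lenses. Here too the groups were apart, with null array 5 the lowest (difference −0.66 ± 0.22, limma adjusted p = 0.403). Ndufb5 was at 9.52, 9.62 and 9.35 in heterozygous and 8.99, 8.87 and 9.04 in null lenses, a gap wider than the range within either group (difference −0.53 ± 0.20, limma adjusted p = 0.484). Ndufb9 was at 8.03, 8.53 and 7.70 against 7.30, 7.61 and 7.57, with heterozygous array 3 close to the null values (difference −0.60 ± 0.25, limma adjusted p = 0.547). Ndufb4 and Ndufb8 were apart as well, with differences of −0.46 ± 0.21 and −0.31 ± 0.19. The remaining Ndufb genes, Ndufb6, Ndufb11 and Ndufb3, overlapped between groups and differed by −0.15, −0.10 and −0.05. Both probes of Ndufb10 were detected on 1 of 6 arrays each, and that gene was not tested.

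**Figure D2:**
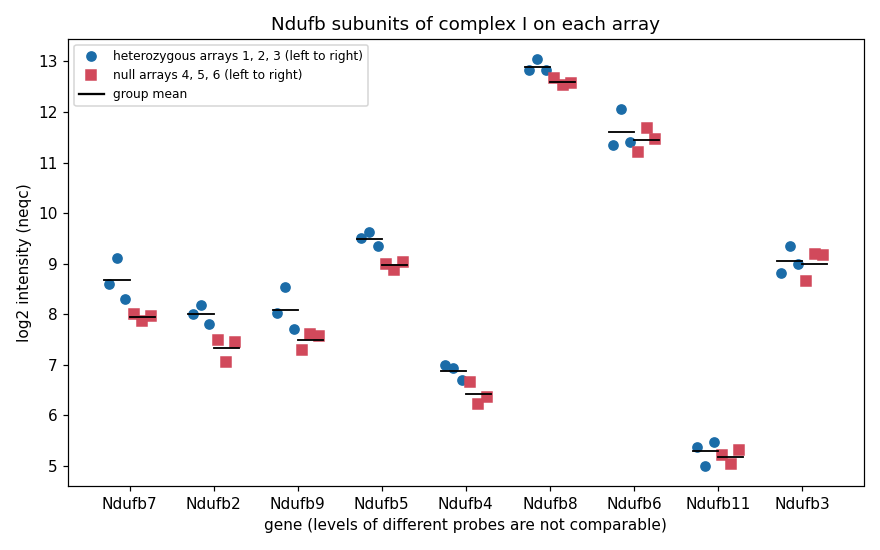
Log2 intensity on each array (y axis) of the 9 tested Ndufb genes of complex I (x axis), heterozygous arrays as blue circles and null arrays as red squares, with group means as bars. In Ndufb7, Ndufb2, Ndufb9, Ndufb5, Ndufb4 and Ndufb8 all null values lie below all heterozygous ones; with arrays scaled to one median 0 of the 32 complex I genes do so.

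The promoters of the 3 Ndufb genes with the smallest p are shown because these genes had the most separated values of the complex; they were picked after their values were seen. Each is RefSeq's window of 250 bases before to 50 bases after the gene start, on the gene's strand, in GRCm38.p6. Capitals mark 2 motifs known from promoters of respiratory genes, searched on both strands: GCGC and GCGC with any 2 bases between, of the factor NRF1, and CCGGAAG, of the ETS factor GABP (NRF-2). The regions are chr6:39592315-39592614 for Ndufb2 and chr3:32736813-32737112 for Ndufb5, both on the plus strand and with no match, and chr8:83566508-83566807 for Ndufb7, on the plus strand, with 1 GABP match.
Ndufb2: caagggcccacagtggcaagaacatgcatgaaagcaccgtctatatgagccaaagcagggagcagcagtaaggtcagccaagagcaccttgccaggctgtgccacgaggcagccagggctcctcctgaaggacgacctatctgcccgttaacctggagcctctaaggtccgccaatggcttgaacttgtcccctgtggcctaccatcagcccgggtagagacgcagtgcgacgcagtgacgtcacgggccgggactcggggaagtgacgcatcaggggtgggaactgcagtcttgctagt
Ndufb5: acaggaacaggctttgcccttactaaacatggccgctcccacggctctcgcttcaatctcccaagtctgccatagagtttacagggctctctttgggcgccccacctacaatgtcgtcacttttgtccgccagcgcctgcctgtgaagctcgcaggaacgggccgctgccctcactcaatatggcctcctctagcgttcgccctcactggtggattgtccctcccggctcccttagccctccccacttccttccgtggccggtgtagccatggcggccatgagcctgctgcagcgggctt
Ndufb7: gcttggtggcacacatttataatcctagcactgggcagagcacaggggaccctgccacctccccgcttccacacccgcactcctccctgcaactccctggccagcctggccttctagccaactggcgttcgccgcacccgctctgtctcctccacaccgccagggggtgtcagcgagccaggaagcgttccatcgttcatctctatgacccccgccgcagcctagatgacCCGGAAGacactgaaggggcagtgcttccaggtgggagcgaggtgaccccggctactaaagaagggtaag

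Over the whole family, 65 genes had a promoter in the RefSeq table, of which 18 (27.7%) held the NRF1 motif and 16 (24.6%) the GABP motif. Among all 27025 genes with such a window 7.0% held the first and 9.93% the second, and among the 7336 tested genes with one 15.3% and 20.5%. The 2 motifs did not overlap in any promoter printed here. By complex, the NRF1 motif was in 8 of 31 promoters of complex I, 2 of 3 of complex II, 1 of 5 of complex III, 1 of 12 of complex IV and 6 of 14 of complex V. The median difference between null and heterozygous lenses was −0.16 over the 17 tested members with an NRF1 match and −0.14 over the 44 without, and −0.15 for the GABP motif in both cases (16 and 45 genes). A match of letters does not show that a factor binds.

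Among the core subunits of complex I, several of which carry the flavin or the iron-sulphur clusters, 4 of 5 tested were lower. Ndufs3 was at 10.33, 10.86 and 10.38 in heterozygous and 10.14, 10.17 and 10.08 in null lenses, without overlap (difference −0.39 ± 0.22, limma adjusted p = 0.667). Ndufs7 was also apart (−0.32 ± 0.20), whereas Ndufs8 (−0.27 ± 0.23) and Ndufv2 (−0.17 ± 0.20) overlapped. Ndufv1, the subunit that binds NADH and the flavin, was at 9.68, 9.21 and 10.19 in heterozygous and 9.59, 9.59 and 10.14 in null lenses. The null values lay within the heterozygous range (difference 0.08 ± 0.29, 95% interval −0.57 to 0.73). The probe of Ndufs1, the largest subunit of the matrix arm, was detected on 0 of 6 arrays and gives no value. Of the other accessory subunits, Ndufa11 (−0.51 ± 0.25), Ndufv3 (−0.44 ± 0.21) and Ndufa6 (−0.40 ± 0.21) were lower without overlap. Ndufa12, with −0.50 ± 0.24, overlapped through null array 5. The mitochondrial acyl carrier protein Ndufab1 differed by −0.16 ± 0.23. Ndufa13 and Ndufa1, at 42.5% and 41.2% of the brightest signal at most, differed by −0.09 ± 0.19 and −0.09 ± 0.23.

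The level of complex I also varied within the groups. Relative to each gene's heterozygous mean, its median by array was −0.14, 0.24 and −0.06 in heterozygous samples and −0.39, −0.11 and −0.29 in null samples. Null array 5 lay above heterozygous array 1, so the groups overlapped, and heterozygous array 2 was the highest. Taken within replicate numbers, on the series matrix values whose columns carry them, the median difference was −0.15, −0.33 and −0.20 for replicates 1, 2 and 3, lower in all 3. That the numbers pair the samples was taken from these same data, not from the labels. Without heterozygous array 2 the median difference of complex I was −0.17 and 23 of 32 genes were lower, and without null array 5 it was −0.28 and 31 of 32 were lower. Leaving out both gave −0.22, with 28 of 32 lower and 18 of 32 without overlap, against 19.4% of all genes in these 4 arrays.

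**Figure D3:**
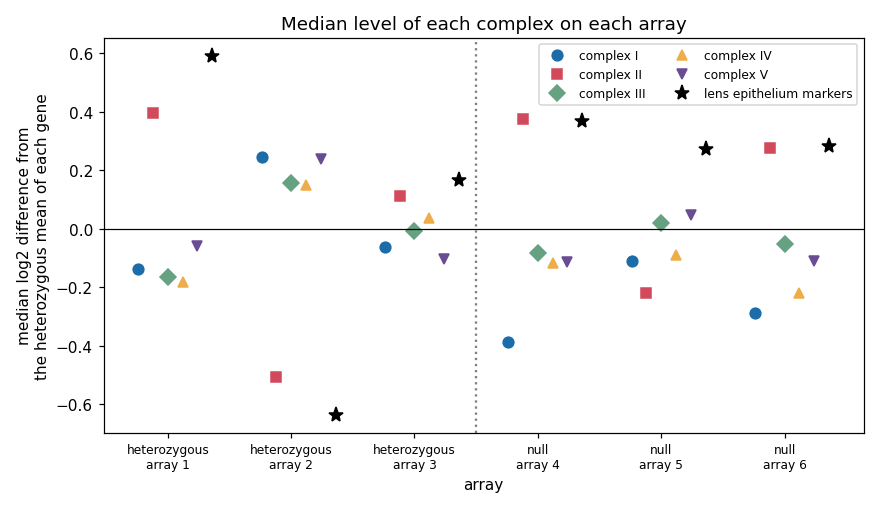
Median, over the tested genes of each complex and over lens epithelium markers, of the log2 difference from the gene's heterozygous mean (y axis) on each of the 6 arrays (x axis). Complexes I, III, IV and V are highest on heterozygous array 2, at 0.24, 0.16, 0.15 and 0.24, where complex II and the epithelium markers are lowest, at −0.51 and −0.63; scaling arrays to one median shifts the median of all genes to 0.32.

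Markers of cell types also varied between the arrays, in part against complex I. Lens epithelium markers (13 tested of 14 listed, 1 detected on no array) had medians by array of 0.59, −0.63 and 0.17 in heterozygous and 0.37, 0.27 and 0.28 in null samples, so heterozygous array 2 was lowest in them and highest in complex I. Their summed intensity ran from 8965 to 25768 in heterozygous and from 17897 to 21728 in null samples. Of the 13 epithelium markers, 10 had a higher mean in null samples and 3 a lower one, with a median difference of 0.32. Of the 11 tested lens fibre genes, 10 had a lower mean and 1 a higher one, with a median of −0.06. Over all genes tested 46.8% were lower. Leucocyte and macrophage markers (9 tested of 16 listed, 14 of them on the array) summed to between 325 and 353 in heterozygous and between 592 and 5401 in null samples. Of the 9, 8 had a higher mean in null samples, a direction that the filter on dim probes largely fixed for those detected in null samples alone. Lyz2, C1qb, C1qc, Fcer1g and Cd14 were detected on 0 of 3 heterozygous arrays, Cd53 on 1 and Laptm5 on 2. Csf1r and Aif1 were detected on all 6 arrays, overlapped between groups and differed by 0.21 ± 0.32 and −0.13 ± 0.27. Ptprc was below detection on at least 4 of 6 arrays. Retinal photoreceptor markers (10 tested of 12 listed, 1 detected on no array) had higher means in null samples for 9 of 10, with medians by array of −0.85, 0.72 and 0.19 in heterozygous and 0.76, 0.39 and 0.53 in null samples, and summed to between 392 and 1415 and between 1162 and 1658. In heterozygous samples their order was that of complex I, highest on array 2 and lowest on array 1. In null samples it was the reverse of complex I, highest on array 4 and lowest on array 5. The part of these markers in the complex I values was not tested. On null array 4, where the leucocyte median was 0.80, complex I was lowest (−0.39), and on null array 5, where it was 4.80, complex I was the highest of the null arrays (−0.11).

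The lower values of complex I relative to all genes were found under every processing tried. Relative to the median of all genes the complex I median was −0.23, and over the 18 alternatives it ran from −0.48, on the series matrix values as deposited, to −0.16, without heterozygous array 2. Of the 32 complex I genes, 30 were in the brightest of 3 equal classes by level. In that class, as reported, their median was −0.21 and that of all genes 0.04. Genes of like level were not compared under the alternatives, so a shift that depends on level was not tested there. The alternatives use the same arrays and were not independent, and some could hardly differ. Quantile-normalized series matrix values, with or without a replicate block, gave −0.216, as did no background correction. The variance trend leaves differences unchanged. The count of genes at an unadjusted p under 0.05 depended on the processing. It was 4 of 32 lower (4.53% of all genes), 11 of 32 with no background correction (4.72%), 11 of 32 with an offset of 50 (4.83%) and 12 of 32 on quantile-normalized series matrix values (4.73%). A block for the replicate number on the last values gave 14 of 32 (7.36%). The smallest adjusted p of a complex I gene in these was 0.403, 0.260, 0.278, 0.264 and 0.140, the last for Ndufa12, so 0 passed in each by limma. The count was 0 of 32 with arrays scaled to one median (0.805%) and 5 of 32 with array weights (7.39%). Leaving out 1 array gave from 2 to 4 of 32 (3.26% to 5.27%). Leaving out heterozygous array 2 and null array 5 together gave 2 of 32 (5.29%).

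**Figure D4:**
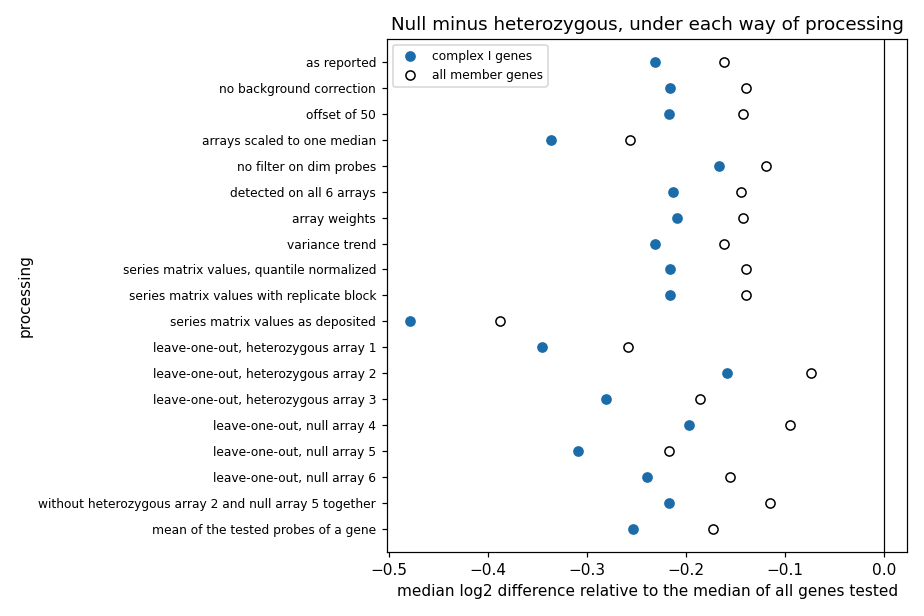
Median log2 difference, null minus heterozygous, of complex I genes (filled) and of all member genes (open) relative to the median of all genes tested (x axis), under the reported processing and 18 alternatives (y axis). All points lie below 0, between −0.48 and −0.16 for complex I; the unadjusted median of the members is above 0 (0.060) after scaling arrays to one median.

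Complex II, succinate dehydrogenase, is shared by the respiratory chain and the tricarboxylic acid cycle and consists of 4 subunits, all nuclear. Sdhb, the iron-sulphur subunit, lies on chromosome 4, as Tdrd7 does. On its brightest probe it was at 10.53, 10.51 and 10.40 in heterozygous and 10.33, 10.12 and 10.25 in null lenses. The groups did not overlap (difference −0.25 ± 0.19, limma adjusted p = 0.783), nor did they on a second probe (−0.33 ± 0.20), while a dimmer probe, detected on 4 of 6 arrays, differed by 0.11 ± 0.26. The membrane anchors lay the other way. Sdhc was at 8.47, 7.56 and 8.18 in heterozygous and 8.57, 8.34 and 8.50 in null lenses, where heterozygous array 2 was far below the rest (difference 0.40 ± 0.26, limma adjusted p = 0.730). Sdhd was at 6.53, 4.96 and 6.37 against 6.33, 5.73 and 6.23, again with heterozygous array 2 the lowest. Its difference of 0.14 ± 0.39 was −0.35 without that array. On heterozygous array 2 the anchors and the epithelium markers were both at their lowest, whereas complex I was at its highest. Sdha, the flavin subunit, was detected on 0 of 6 arrays by its 1 probe.

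The promoter of Sdhd, chr9:50603800-50604099 on the minus strand of GRCm38.p6, is shown because it is 1 of 3 genes that hold an NRF1 match among those with the smallest p in their complex. In all, 7 of the named members hold one. It also holds a GABP match.
Sdhd: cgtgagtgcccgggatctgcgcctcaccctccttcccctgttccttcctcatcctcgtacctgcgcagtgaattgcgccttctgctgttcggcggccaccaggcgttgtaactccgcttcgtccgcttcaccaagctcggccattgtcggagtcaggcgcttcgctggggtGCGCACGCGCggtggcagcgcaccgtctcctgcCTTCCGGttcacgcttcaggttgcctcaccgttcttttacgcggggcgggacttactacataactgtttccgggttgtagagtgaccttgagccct

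Complex III, the cytochrome bc1 complex, passes electrons from ubiquinol to cytochrome c. Its 6 tested genes had differences from −0.27 to 0.21, 4 lower and 2 higher. Uqcr10, a small accessory subunit, was at 12.88, 12.84 and 13.03 in heterozygous and 12.66, 12.37 and 12.93 in null lenses, and null array 6 lay within the heterozygous values (difference −0.27 ± 0.22, limma adjusted p = 0.797). Its second probe gave −0.28 ± 0.20. Uqcrc2, a core protein, was at 11.13, 11.54 and 11.30 against 11.35, 11.69 and 11.55. That order overlapped too (difference 0.21 ± 0.21, limma adjusted p = 0.838). Uqcrc1, the other core protein, Cyc1, the haem-bearing cytochrome c1, and Uqcr11 differed by −0.09 ± 0.21, −0.08 ± 0.21 and −0.14 ± 0.21. Uqcrh, the hinge protein, also on chromosome 4, was at 13.01, 13.22 and 13.12 against 13.23, 13.18 and 12.99, a difference of 0.02 ± 0.20 (95% interval −0.42 to 0.46). The median of the complex, −0.08, changed sign without heterozygous array 2, to 0.040. Of the 2 probes of Uqcrfs1, the Rieske protein, neither was detected on any array, and of those of Uqcrq 1 was detected on 2 of 6.

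Complex IV, cytochrome c oxidase, hands the electrons to oxygen, and several of its small subunits exist in a form used in most tissues and another known from heart, skeletal muscle, lung or testis. The 9 ubiquitous or single forms had a median of −0.14, with 8 lower, and the 5 tested tissue forms one of 0.04, with 2 lower. Ndufa4, once counted as part of complex I and now known as a complex IV subunit, was at 12.95, 13.30 and 13.20 in heterozygous and 12.93, 12.47 and 12.61 in null lenses. It was the only gene of the complex without overlap, and heterozygous array 1 and null array 4 nearly touched (difference −0.48 ± 0.22, limma adjusted p = 0.581). Cox4i1, the largest nuclear subunit, was at 12.72, 12.72 and 13.08 against 12.81, 12.71 and 13.01, a difference of 0.01 ± 0.21 (95% interval −0.47 to 0.48). Cox5a and Cox5b, the subunits next to it, differed by −0.14 ± 0.26 and −0.26 ± 0.21, and Cox7b by −0.45 ± 0.27. Cox7a2l, which joins complexes III and IV in supercomplexes, differed by −0.10 ± 0.20.

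Several tissue forms were near background. Cox4i2, the lung form, and Cox8b, of heart and muscle, were each detected on 3 of 6 arrays, Cox7a1, of heart and muscle, on 5 of 6, and the testis forms Cox7b2 and Cox8c on 0 of 6. Cox6b2, another testis form, was detected on all 6 arrays on 1 probe and on 1 of 6 on the other. Cox6a2, the form of heart and skeletal muscle, was detected on all 6 arrays. It was at 6.01, 5.83 and 6.67 in heterozygous and 6.10, 7.60 and 5.67 in null lenses, so that null array 5 stood alone above the rest (difference 0.29 ± 0.46, −0.29 without that array). The same array was the highest for Cox4i2, which was at 4.63, 5.33 and 4.83 against 4.67, 6.17 and 4.71 (difference 0.26 ± 0.40). Muscle markers, 4 tested of 15 listed with 8 detected on no array, summed to between 12002 and 16848 in heterozygous and between 20476 and 25532 in null samples, nearly all of it Acta2, and their part in these values was not tested. The ubiquitous partners Cox6a1, Cox6b1 and Cox7a2 were detected on all 6 arrays and differed by −0.15 ± 0.29, −0.11 ± 0.22 and −0.14 ± 0.23.

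In complex V, 9 of 16 genes had a lower and 7 a higher mean in null lenses. Atp5e, the small epsilon subunit of the F1 head, was at 8.37, 8.66 and 8.05 in heterozygous and 8.09, 7.36 and 7.45 in null lenses, where null array 4 fell among the heterozygous values. Its difference was −0.72 ± 0.27 (95% interval −1.32 to −0.13, limma adjusted p = 0.469). Atp5g3, which encodes the c subunit of the proton-driven ring, went the other way and was the 1 member whose null values all lay above: it was at 12.52, 12.45 and 12.55 in heterozygous and 12.88, 13.06 and 12.90 in null lenses. The values of each group were close together (difference 0.44 ± 0.19, 95% interval 0.01 to 0.87, limma adjusted p = 0.564). Atp5g2, a second gene for the same c subunit, differed by −0.40 ± 0.34, with heterozygous array 2 at 8.90 and the other arrays between 7.51 and 8.20. The alpha, beta and gamma subunits of F1 had higher means in null lenses, none past the threshold. Atp5c1, the gamma subunit that turns inside the head, was at 11.34, 10.93 and 11.06 against 11.33, 11.81 and 11.38, a difference of 0.40 ± 0.23 (limma adjusted p = 0.677) in which heterozygous array 1 reached the lowest null value. Atp5b, the catalytic beta subunit, differed by 0.09 ± 0.23 and Atp5a1, the alpha subunit, by 0.06 ± 0.26. Atp5b reached 50.3% of the brightest signal, and saturation was not tested there. Of the 9 genes of the stalk and membrane part 6 were lower, with a median of −0.12, and Atp5pb, the b subunit, was the 1 without overlap (−0.19 ± 0.19).

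The promoter windows of Atp5g3 and Atp5c1 are shown by the same rule as that of Sdhd, as genes with an NRF1 match among those with the smallest p. The match was thus fixed by the choice and says nothing about the direction of the difference. Of the 17 tested members with an NRF1 match 13 were lower in null lenses, and of the 44 without 37 were. Each of the windows shown held 1 NRF1 match and no GABP match. Those windows lie at chr2:73911277-73911576 and chr2:10080383-10080682, both on the minus strand of GRCm38.p6 and both on chromosome 2. A second window of Atp5c1, chr2:10080461-10080760, held no match of either motif and is not shown.
Atp5g3: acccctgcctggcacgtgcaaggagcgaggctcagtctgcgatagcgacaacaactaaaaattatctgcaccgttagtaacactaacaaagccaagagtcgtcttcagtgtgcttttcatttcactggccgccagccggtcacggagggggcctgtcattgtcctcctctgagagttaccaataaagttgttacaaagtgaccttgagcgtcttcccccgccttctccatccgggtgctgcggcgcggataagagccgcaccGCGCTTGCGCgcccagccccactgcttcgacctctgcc
Atp5c1: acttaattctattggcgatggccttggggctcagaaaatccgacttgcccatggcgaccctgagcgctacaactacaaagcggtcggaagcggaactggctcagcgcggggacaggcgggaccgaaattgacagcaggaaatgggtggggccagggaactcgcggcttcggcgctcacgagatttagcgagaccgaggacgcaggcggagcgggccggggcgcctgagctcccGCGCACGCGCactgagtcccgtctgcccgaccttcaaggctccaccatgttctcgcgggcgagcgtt

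Genes with several probes gave a check of single probes within the family. All probes of a gene share the same 6 arrays, so samples and arrays were not checked by it. By the brightest probe 55 of the 73 tested genes were lower. Of 18 genes with at least 2 tested probes, 14 had lower means in null lenses on all of them and 4, Sdhb, Atp5l, Ndufa8 and Atp5j, had probes of both signs. The widest gap in these 4 was 0.44, in Sdhb, and the narrowest 0.07, in Atp5j. The complex I genes Ndufs4 and Ndufab1, with 4 tested probes each, ranged from −0.35 to −0.07 and from −0.36 to −0.09. Many of these genes have processed pseudogenes, and whether a probe also binds transcripts of those was not analysed here. Ndufs5-ps differed by −0.24 ± 0.28 and belongs to no complex count.

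Of the 80 genes, 9 lie on chromosome 7, the most on any, and 3 on chromosome 4. The 3 on chromosome 4, Sdhb, Ndufb6 and Uqcrh, differed by −0.25, −0.15 and 0.02, within the range of the other members. Members were mostly bright: 62 of the 73 genes were among the brightest when all tested genes were ranked by level and cut into 3 equal classes. In that class the median of all genes was 0.04 and that of the members −0.15.

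Other genes of the mitochondrion gave 0 genes past the threshold in limma in each of 5 lists. Before adjustment, limma p was below 0.05 for 3 of 15 regulators of mitochondrial gene expression, all lower in null lenses. It was so for 1 of 36 assembly factors and 1 of 18 import and outer membrane genes, both lower. Among 14 tricarboxylic acid cycle and pyruvate dehydrogenase genes 1 reached this level, and among 16 carriers 1, both higher. Over all genes, 4.53% reached it lower and 4.64% higher. Among assembly factors of the respiratory complexes, 22 of 36 were lower, with a median of −0.10. Ndufaf2, which helps assemble complex I, was at 8.67, 8.77 and 8.67 in heterozygous and 8.11, 7.74 and 8.55 in null lenses, without overlap (difference −0.57 ± 0.24, limma adjusted p = 0.551). Tmem70, needed to assemble ATP synthase, differed by −0.41 ± 0.23, again without overlap. The tricarboxylic acid cycle and pyruvate dehydrogenase had 8 of 14 lower and a median of −0.04. In that list Idh3b, a subunit of isocitrate dehydrogenase, was at 9.57, 9.62 and 9.61 against 10.05, 10.03 and 10.07, without overlap, and did not pass (difference 0.45 ± 0.19, limma adjusted p = 0.535). Citrate synthase, Cs, differed by 0.36 ± 0.20.

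Of the electron and nucleotide carriers, 12 of 16 had a higher mean, with a median of 0.21. Slc25a3, the phosphate carrier that supplies ATP synthase, was at 10.91, 10.70 and 10.53 in heterozygous and 11.20, 11.35 and 11.14 in null lenses, without overlap (difference 0.52 ± 0.20, limma adjusted p = 0.518). Etfb, a subunit of the electron transfer flavoprotein, lay below in all 3 null samples (−0.38 ± 0.19). Regulators of mitochondrial gene expression had 9 of 15 higher and a median of 0.16, but the 2 with the smallest p were lower without overlap. These were Tfb1m, a methyltransferase of mitochondrial ribosomal RNA, with 6.37, 6.23 and 6.62 against 5.83, 5.07 and 5.64 (difference −0.89 ± 0.25, limma adjusted p = 0.288), and Gabpa, the DNA-binding subunit of GABP, with 6.77, 7.22 and 6.53 against 6.20, 5.98 and 5.94 (difference −0.80 ± 0.24, limma adjusted p = 0.319). The import and outer membrane list was even, with 9 of 18 lower and a median of −0.02. Hspe1, the small mitochondrial chaperonin, differed by −0.69 ± 0.25 and Phb2, a prohibitin, by −0.33 ± 0.20.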

How the data were processed

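Total RNA of 6 mouse lens samples was labelled with the Illumina TotalPrep kit and hybridised to Illumina arrays, per the labels' protocols. Per the file headers, the deposited raw data give an intensity for every probe on every array, with no sign of normalization in the values, and beside it a detection p-value. The authors' series matrix holds another intensity, a straight-line rescaling of each raw column by a method that is not given in the sources used here, with column medians from 64.8 to 66.2. Its scale is linear, its direction that of brightness, and any centring is unknown. The raw columns carry no replicate number.

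Intensities were processed with neqc of limma 3.58.1 in R 4.3.3 (normexp background with control moments inferred from detection p-values, offset 16, quantile normalization, log2). Probes detected at p under 0.05 on 3 or more arrays were tested with lmFit and eBayes, two-sided, with Benjamini-Hochberg adjustment at 0.05, and the fit was tested on simulated data. An exact test of 3 against 3 cannot go below p = 0.1. Of 45281 probes, 34885 have 1 gene in the platform annotation, 18 several and 10378 none; those with several were left unnamed. All 80 members matched RefSeq by gene ID. Each gene is represented by its probe with the highest mean.

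Same-numbered replicates had correlated deviations on the series matrix (0.11, 0.37 and 0.58), so the numbers were taken to pair the samples, from the data and not from the labels. Replicates of different number gave from −0.45 to 0.16. Heterozygous replicate 1 went more with null replicate 3 (0.16) than with null replicate 1 (0.11), so its pairing was not borne out. The within-replicate differences and the block fit rest on this pairing and on the same data. The block was fitted on the series matrix values, whose columns carry the numbers. Raw columns were not given numbers through their values.

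Genes were named by rule: members past the threshold, the 3 with the smallest p per complex, core subunits, tissue isoforms with their partners, members on chromosome 4, the 4 genes with the widest gap between probes of opposite sign, and 2 per pathway list. Further Ndufb, Ndufs and Ndufa genes were named as examples after their values were seen, as was the GABP motif. Promoters with an NRF1 match were printed only for genes named by smallest p. Cox8a and Ndufa4l2, in the rule, are not analysed here. The members, lists and tests were chosen with earlier results of these data known. Alternatives covered background, offset, scaling, filters, weights, variance trend, source of values, pairing and left-out arrays.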

Additional observations from a re-analysis of the deposited data

How the results depend on the processing

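The count of subunits past the threshold was 0 under all 17 alternatives for which it was computed, and the smallest adjusted p of a named member over them was 0.172. Over all probes, 27 passed. That count was 9 with no background correction, 11 with an offset of 50, 3 after scaling arrays to one median, 0 with no filter on dim probes, 266 with array weights, 9 on quantile-normalized series matrix values, 0 on the series matrix values as deposited (an alternative chosen after seeing the data), 114 without heterozygous array 2 and null array 5 together, and from 2 to 30 when 1 array was left out. With a replicate block fitted to the series matrix, 35 probes passed, 12 higher and 23 lower, none of them a subunit. The block changed no call of a subunit, but 24 member probes were then lower at an unadjusted p under 0.05 (6.95% of all probes), in place of 17 (4.49%) on the same values without the block and 5 (4.44%) as reported.

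After scaling arrays to one median, the median differences were 0.060 for members, −0.020 for complex I, 0.35 for complex II, 0.21 for complex III, 0.0098 for complex IV and 0.12 for complex V, with 0.32 for all genes. On the series matrix values as deposited they were −0.39 for members, −0.48 for complex I, −0.27 for complex III, −0.30 for complex IV and −0.36 for complex V, with −0.0054 for all genes. The cause was not tested. Leaving out 1 array gave from −0.22 to −0.08 for members, −0.31 to −0.17 for complex I, −0.23 to 0.43 for complex II, −0.17 to 0.040 for complex III, −0.19 to −0.02 for complex IV and −0.13 to 0.0030 for complex V. Of 35 named members tested, 12 kept their sign under every alternative, among them Ndufb2, Ndufb5, Ndufb7, Ndufa4, Atp5e, Atp5g3, Atp5c1 and Sdhc, and 23 changed sign in at least 1, of which none was past the threshold in either case. With 3 arrays per group, differences under about 0.50 on the log2 scale were not resolved.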
